A study of Homo sapiens with 9 samples.

Results

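Matrix metalloproteinases and their tissue inhibitors were examined in RNA-Seq of PC3 tumor xenografts as a set of 10 genes, 8 proteases (MMP1, MMP2, MMP3, MMP7, MMP9, MMP10, MMP13 and MMP14) and 2 inhibitors (TIMP1 and TIMP2). The genes were taken by name, and all 10 had 1 row in each of the deposited count tables, which shared 16008 genes. They were chosen from their measured levels in the vehicle and treated libraries, with the very high MMP1 of 1 vehicle library in view. Their differences from vehicle are therefore a description with no p-value, and counts of those past a threshold are printed beside the share of all genes without being read as a test. Of the comparisons of these 10 genes, only the direct one between the treated groups is given with p-values. The levels it compares were in view at the choice, so its p-values are no independent test.

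RNA-Seq of PC3 tumors after vehicle or antibody-drug conjugates was part of a study of asporin as a HER3 ligand in prostate cancer. PC3 is a human prostate cancer cell line from a bone metastasis. Per the series record, cells were mixed with PBS and Matrigel, a basement membrane extract, and injected under the flank skin of male NSG mice aged 11 weeks, which lack T, B and NK cells but keep macrophages and neutrophils. From a tumor volume of 90 mm3, mice received PBS (3 libraries) or 5 mg/kg of patritumab deruxtecan (P-DXd, against HER3) or trastuzumab deruxtecan (T-DXd, against HER2) into the retro-orbital sinus once a week for 5 cycles. The study's methods differ from this record in mouse age, starting volume and number of cycles. Both conjugates carry deruxtecan, an inhibitor of topoisomerase I. For all 6 treated libraries the title names one conjugate and the treatment field the other, so the groups are named P-DXd-titled (3 libraries) and T-DXd-titled (3 libraries), and which conjugate each received is unresolved. Titles carry a different animal code for each library but do not state that each is a separate mouse, and p-values measure only the spread between these libraries.

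Matrix metalloproteinases are zinc-dependent enzymes that cut collagens, laminins, fibronectin and other matrix and cell-surface proteins. They are made as inactive precursors and are activated by removal of a propeptide, by plasmin, by each other or by furin-type proteases. TIMPs bind the active site and block it, and TIMP2 also takes part, with MMP14, in activating the MMP2 precursor at the cell surface. Many of these genes lie together on chromosome 11 and carry AP-1 elements, to which FOS and JUN proteins bind, near their start sites.

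Total counts per library ranged from 54481702 to 125538606, with the PBS libraries the deepest. Levels are CPM, the counts scaled to a common depth on library sizes adjusted by the TMM method over all 9 libraries, and the lowest count behind any level of the 10 genes was 74, of MMP7 in PBS replicate 1. That library stood apart. It lay at least 2-fold outside both other PBS libraries for 7.59% of the 12593 genes with a mean PBS level of 1 CPM or more, against 0.214% for PBS replicate 2 and 0.524% for PBS replicate 3. Among the 10 genes it did so for 6, above the others for MMP1, MMP2 and MMP3 and below them for MMP7, MMP9 and TIMP2, so fold changes and counts that it moves are given with and without it. P-DXd-titled replicate 2 also stood apart, by skeletal muscle genes. They summed to 4572 CPM there, to 77.6 to 270 CPM in the other treated libraries and to 17.3, 51.3 and 3.12 CPM in PBS. All treated libraries were thus above all PBS libraries for this sum. The tables give no split of human and mouse reads. KLK3 and KLK2, markers of luminal prostate cells, were not in both tables. In bulk tumor RNA, fewer cells of a type and less RNA per cell cannot be told apart.

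The upstream sequences of 4 of the 10 genes, those in the RefSeq promoter table used here, are shown because MMP7, MMP10 and TIMP1 were higher in every treated than in every PBS library while the groups overlapped for MMP14. These are the 120 bases before the start site in RefSeq on GRCh38.p14, 5′ to 3′ on the strand of the gene, with the AP-1 element TGANTCA in capitals where it occurs. MMP7 is at chr11:102530748-102530867 (minus strand), MMP10 at chr11:102780629-102780748 (minus strand), MMP14 at chr14:22836465-22836584 (plus strand) and TIMP1 at chrX:47582316-47582435 (plus strand).
MMP7: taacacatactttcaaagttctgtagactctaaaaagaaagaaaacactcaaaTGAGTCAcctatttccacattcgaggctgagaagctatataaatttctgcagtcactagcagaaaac
MMP10: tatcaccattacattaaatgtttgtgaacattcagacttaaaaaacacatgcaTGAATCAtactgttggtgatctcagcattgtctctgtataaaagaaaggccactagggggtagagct
MMP14: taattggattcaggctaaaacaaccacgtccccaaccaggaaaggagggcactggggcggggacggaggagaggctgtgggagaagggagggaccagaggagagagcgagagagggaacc
TIMP1: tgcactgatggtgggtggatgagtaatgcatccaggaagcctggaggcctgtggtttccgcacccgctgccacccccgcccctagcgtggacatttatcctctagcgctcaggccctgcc

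The AP-1 element of MMP7 and that of MMP10 lie at the same distance, from 67 to 61 bases before the start. Both genes also have a TATA box (TATAAA), from 30 to 25 bases before the start in MMP7 and from 31 to 26 in MMP10. In MMP14 and TIMP1, neither TGANTCA nor TATAAA was found in the 250 bases searched, and variants of these letters were not searched. Both have a GC box (GGGCGG), MMP14 from 66 to 61 bases before the start and TIMP1 from 45 to 40 and again from 135 to 130. Of the 35116 promoters in the table, 6.57% hold the AP-1 element, 10.7% the TATA box, 42.6% the GC box and 28.7% the ETS core. The search covered both strands over the same 250 bases. A match is a run of letters and not a measured binding site. MMP1, MMP2, MMP3, MMP9, MMP13 and TIMP2 were not in the promoter table.

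The collagenases MMP1 and MMP13 cut fibrillar collagen. MMP1 (chromosome 11, 102660651 to 102668891, as the count tables list it on a build they do not name) was at 695, 87.6 and 68.9 CPM in PBS replicates 1 to 3. It was at 63.2, 39.9 and 53.7 CPM in the P-DXd-titled and at 47.9, 49.3 and 49.4 CPM in the T-DXd-titled libraries. Every treated library was below every PBS library, but PBS replicate 1 was 8.88-fold above the mean of the other PBS libraries and set the size of the difference. The log2 fold change was −2.45 ± 0.87 (SE) for P-DXd-titled and −2.57 ± 0.88 for T-DXd-titled against PBS, and −0.58 ± 0.18 and −0.69 ± 0.09 without PBS replicate 1.

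MMP13 (chromosome 11, 102813724 to 102826463) was at 103.7, 56.0 and 62.5 CPM in PBS, 101.3, 67.4 and 105.5 CPM in P-DXd-titled and 70.5, 92.0 and 75.5 CPM in T-DXd-titled libraries. The groups overlapped through PBS replicate 1 alone, since both other PBS libraries lay below all 6 treated ones. Its log2 fold change was 0.29 ± 0.27 and 0.08 ± 0.24 with all PBS libraries and 0.62 ± 0.18 and 0.41 ± 0.10 without replicate 1.

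The stromelysins MMP3 and MMP10 cut a broad range of matrix proteins and can activate other precursors. MMP10 (chromosome 11, 102641234 to 102651359) was at 219, 268 and 285 CPM in PBS. It was at 680, 595 and 637 CPM in P-DXd-titled and at 678, 653 and 769 CPM in T-DXd-titled libraries. All 6 treated libraries were above all PBS libraries, and PBS replicate 1 was close to its group. The log2 fold change was 1.3 ± 0.13 for P-DXd-titled and 1.43 ± 0.12 for T-DXd-titled, and between 1.2 and 1.5 with any 1 library left out.

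MMP3 (chromosome 11, 102706532 to 102714534) was at 34.1, 10.3 and 6.44 CPM in PBS, 17.4, 13.3 and 16.4 CPM in P-DXd-titled and 16.7, 15.0 and 18.8 CPM in T-DXd-titled libraries. PBS replicate 1 was above every treated library and both other PBS libraries were below all of them. The log2 fold change was −0.12 ± 0.56 and −0.03 ± 0.57 in the 2 comparisons with that library and 0.90 ± 0.21 and 0.99 ± 0.17 without it. Near 0 the sign was also unsteady otherwise, at 0.06 and 0.47 with a block on the first digit of the animal code and at 0.05 for T-DXd-titled without T-DXd-titled replicate 2.

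MMP7, or matrilysin, is a short metalloproteinase made mainly by epithelial cells. MMP7 (chromosome 11, 102391239 to 102401484) was at 0.82, 5.16 and 6.72 CPM in PBS replicates 1 to 3. It was at 47.1, 42.4 and 60.9 CPM in P-DXd-titled and 48.3, 53.6 and 52.9 CPM in T-DXd-titled libraries. The groups were far apart, and the lowest treated library exceeded the highest PBS library by a greater factor than for any other of the 10 genes. The log2 fold change was 3.56 ± 0.66 and 3.59 ± 0.65, and 3.07 ± 0.19 and 3.11 ± 0.11 without PBS replicate 1. The summed level of 6 genes taken as markers of PC3 cells (KRT8, KRT18, KRT19, EPCAM, CDH1 and VIM) was also higher. It was 1896, 2413 and 2684 CPM in PBS and 3475 to 4040 CPM in treated libraries. The genes did not move alike. The log2 fold change was −0.04 and 0.12 for VIM, 0.17 and 0.13 for CDH1, and at least 0.52 for KRT8, KRT18, KRT19 and EPCAM. The part of these genes' cells in the MMP7 level was not tested.

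**Figure D1:**
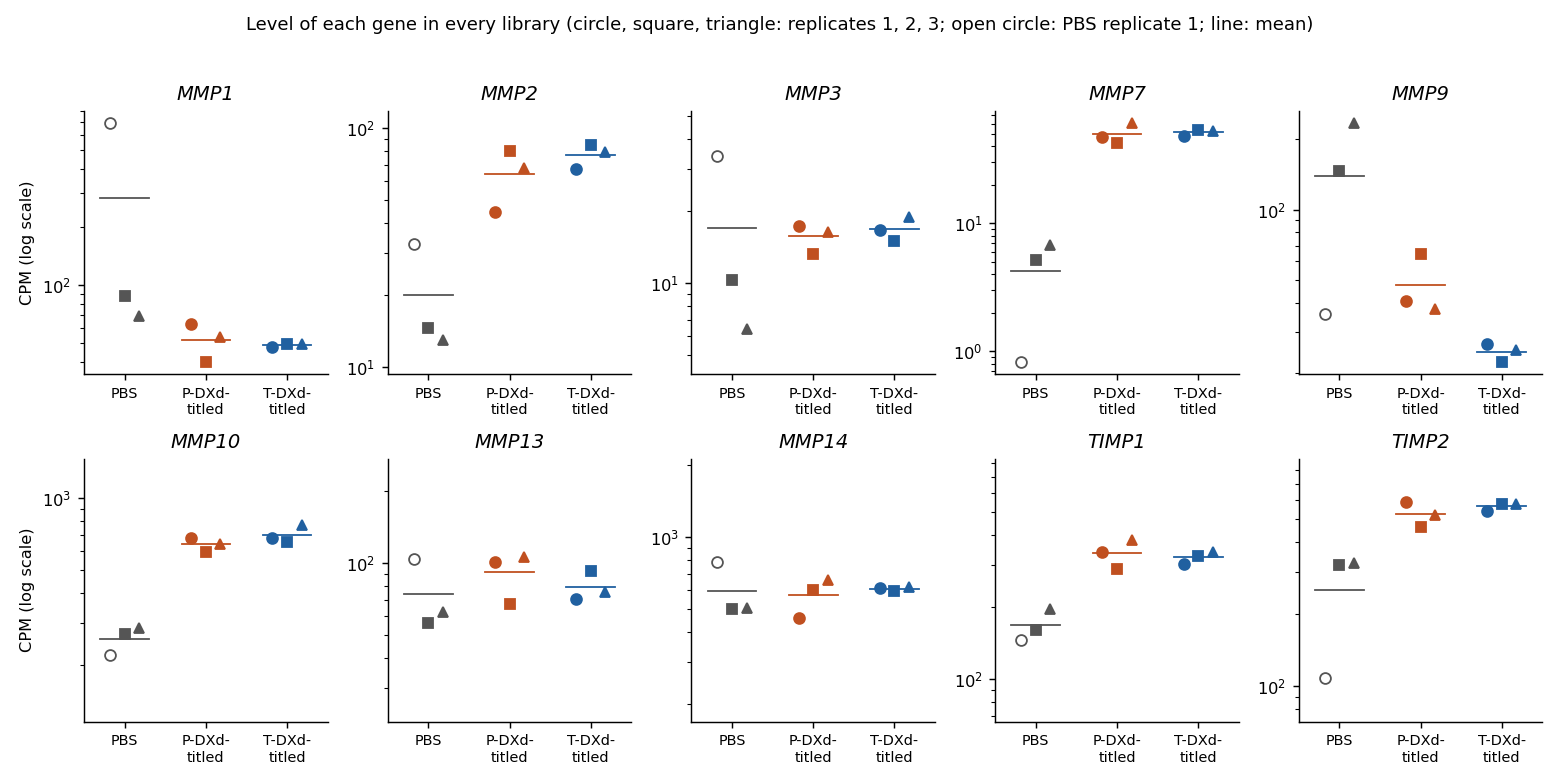
CPM on a log axis of the 10 genes in each of the 9 libraries, by group, with symbols for replicates 1 to 3 and a line at the group mean; the open circle is PBS replicate 1. For MMP1 and MMP3 it is the highest of the 9 libraries, while for MMP2, MMP7, MMP10, TIMP1 and TIMP2 all treated libraries lie above all PBS libraries.

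The gelatinases MMP2 and MMP9 cut denatured collagen and collagen IV. MMP2 (chromosome 16, 55423612 to 55540603), which in tumors is typically made by stromal cells, was at 32.7, 14.7 and 12.99 CPM in PBS. It was at 44.7, 79.9 and 68.0 CPM in P-DXd-titled and at 67.4, 85.2 and 79.3 CPM in T-DXd-titled libraries. All treated libraries were above all PBS libraries, and the highest PBS library (replicate 1) and the lowest treated library (P-DXd-titled replicate 1) were nearest each other. Its log2 fold change was 1.67 ± 0.39 and 1.92 ± 0.36, and 2.21 ± 0.23 and 2.47 ± 0.10 without PBS replicate 1.

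Fibroblast markers moved with MMP2 in part. The summed CPM of 12 fibroblast genes was 2062, 1164 and 1092 in PBS, 1260, 2174 and 2037 in P-DXd-titled and 2193, 2108 and 2275 in T-DXd-titled libraries. P-DXd-titled replicate 1 was thus the lowest treated library for both, but PBS replicate 1 had a higher fibroblast sum than 2 of the 6 treated libraries and less MMP2 than any of them. Most of the sum was COL1A1, COL1A2 and COL3A1, while DCN was at 0.01 to 1.01 CPM and THY1 at 0.02 to 0.18 CPM. The summed genes did not move alike. ACTA2 was lower in treated libraries, at 15.4, 10.2 and 14.0 CPM in PBS and 6.3 to 7.8 CPM in treated ones. Its log2 fold change was −0.94 for P-DXd-titled and −0.89 for T-DXd-titled against PBS. LUM (0.04 and −0.47) and TAGLN (−0.04 and 0.20) were of mixed sign. The median of the 11 fibroblast genes tested was 0.73 and 0.58. The sum of 7 macrophage genes was 6.32 to 7.80 CPM in PBS, 16.3 to 23.8 CPM in P-DXd-titled and 22.7 to 28.2 CPM in T-DXd-titled libraries, with CD68 at 0 to 0.12 CPM and CD163, TYROBP and MRC1 not in both tables. The paper describes mouse stroma infiltrating these xenografts, while the genes counted are human. Which cells the fibroblast and macrophage sums come from was not tested, nor was the part of such cells in the MMP2 level.

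MMP9 (chromosome 20, 44637547 to 44645200), which neutrophils, macrophages and tumor cells can all make, had the opposite direction. It was at 35.9, 146 and 235 CPM in PBS, at 40.8, 64.4 and 37.6 CPM in P-DXd-titled and at 26.6, 22.3 and 25.1 CPM in T-DXd-titled libraries. The T-DXd-titled libraries were below all PBS libraries, whereas the P-DXd-titled ones were above PBS replicate 1 and below the other PBS libraries. The log2 fold change was −1.55 ± 0.59 and −2.51 ± 0.59, and −2.01 ± 0.25 and −2.96 ± 0.15 without PBS replicate 1.

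The sum of neutrophil markers did not follow MMP9 across the groups. The sum of 5 neutrophil genes was 146, 507 and 608 CPM in PBS and 1183 to 1666 CPM in treated libraries, the opposite direction to MMP9, although within PBS both were lowest in replicate 1 and highest in replicate 3. Almost all of it was S100A9 and S100A8, which epithelial cells also make, while CSF3R was at 0 to 0.18 CPM and MPO, ELANE and CEACAM8 were not in both tables. CXCR2, also at a low level, was lower in treated libraries, at 0.86, 0.09 and 0.20 CPM in PBS and 0 to 0.08 CPM in treated ones. FCGR3B was at 0.07 to 0.39 CPM.

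MMP14 (chromosome 14, 23305766 to 23318236) is a membrane-anchored collagenase and the activator of the MMP2 precursor. It was at 781, 496 and 503 CPM in PBS, 456 to 659 CPM in P-DXd-titled and 592 to 614 CPM in T-DXd-titled libraries. The groups overlapped, and the highest of all 9 libraries was again PBS replicate 1. Its log2 fold change was −0.06 ± 0.22 and 0.01 ± 0.19, and 0.19 ± 0.14 and 0.26 ± 0.06 without that library.

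Both inhibitors were higher in the treated groups. TIMP1 (chromosome X, 47441712 to 47446188) was at 145, 160 and 196 CPM in PBS. It was at 340, 289 and 379 CPM in P-DXd-titled and 303, 325 and 338 CPM in T-DXd-titled libraries. The groups did not overlap, and the log2 fold change was 1.00 ± 0.15 and 0.93 ± 0.12, with a range of 0.85 to 1.12 when any 1 library was left out.

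TIMP2 (chromosome 17, 76849059 to 76921469) was at 108, 321 and 328 CPM in PBS, 586, 464 and 519 CPM in P-DXd-titled and 542, 577 and 578 CPM in T-DXd-titled libraries. The groups did not overlap, and PBS replicate 1 was 3.0-fold below the mean of the other PBS libraries. The log2 fold change was 1.05 ± 0.38 and 1.15 ± 0.38, and 0.68 ± 0.11 and 0.79 ± 0.07 without that library. TIMP1 overlaps SYN1 and TIMP2 overlaps DDC8 in the tables and the use of strand in counting is not stated, but SYN1 was at 0.05 to 0.24 CPM and DDC8 at 0.14 to 0.28 CPM.

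**Figure D2:**
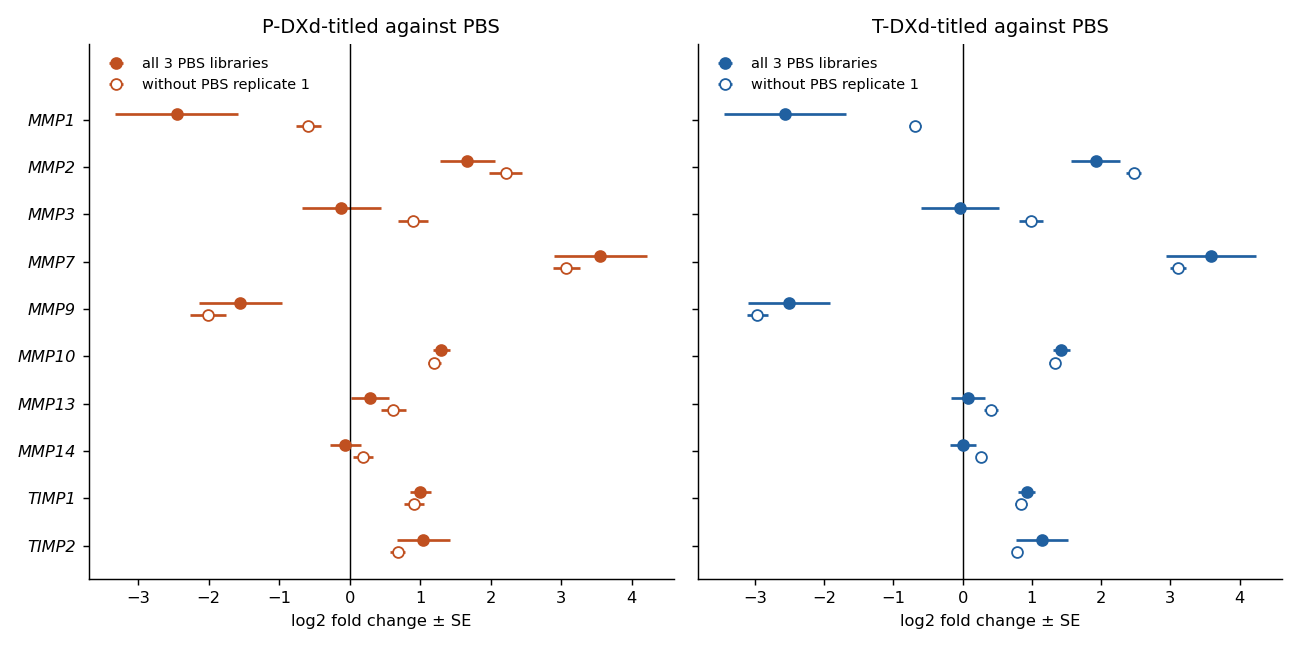
Log2 fold change ± SE of each gene against PBS, left for P-DXd-titled and right for T-DXd-titled libraries, with all PBS libraries (filled) and without PBS replicate 1 (open). MMP1 moved from −2.45 to −0.58 and MMP3 from −0.12 to 0.90 in the P-DXd-titled comparison, while MMP10 stayed between 1.2 and 1.3.

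A gene was called at an adjusted p of at most 0.05 and a fold change of at least 1.5 in edgeR's quasi-likelihood test with Benjamini-Hochberg adjustment over all genes tested. In P-DXd-titled against PBS, 4 of the 10 genes were called (MMP2, MMP7, MMP10 and TIMP1), all higher, where 25% of all genes tested were called, 11.2% higher and 13.8% lower. In T-DXd-titled against PBS, 6 were called, 5 higher (the same 4 and TIMP2) and MMP9 lower, where 28.6% of all genes were called, 13.1% higher and 15.5% lower. With both conjugates together against PBS, 7 were called, the same 5 higher and MMP1 and MMP9 lower, where 32.2% of all genes were called, 15.2% higher and 17.1% lower. These 3 comparisons share the PBS libraries, and the genes were chosen on these contrasts, so nothing is read from the counts.

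Without PBS replicate 1, 8 genes were called in each comparison, where 24.6% of all genes were called for P-DXd-titled, 29% for T-DXd-titled and 27.6% for both. MMP3 joined the higher genes in all 3, TIMP2 and MMP13 joined them and MMP9 joined the lower ones in P-DXd-titled, and MMP1 joined the lower ones in T-DXd-titled. Other single libraries decided calls as well. MMP2 was not called in P-DXd-titled without PBS replicate 2 (log2 fold change 1.46), P-DXd-titled replicate 2 (1.48) or P-DXd-titled replicate 3 (1.63). In T-DXd-titled, MMP9 was not called when any 1 treated library was left out (−2.44 to −2.56), nor was TIMP2 (1.13 to 1.18), which also lost its call without PBS replicate 2 (1.36). Groups of libraries did not overlap for 6 of the 10 genes in P-DXd-titled, 7 in T-DXd-titled and 6 in both together against PBS. The shares of all genes with no overlap were 55.4%, 61.3% and 50.6%. When PBS replicate 1 was left out the counts were 9, 10 and 9, where the shares of all genes were 67%, 73.6% and 61.3%. The median log2 fold change of the 10 genes was 0.65, 0.50 and 0.57 in these comparisons, beside −0.01, −0.02 and −0.01 over all genes tested, and was 0.79, 0.82 and 0.81 without PBS replicate 1, beside 0.01, −0.0014 and 0.01.

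The treated groups were then compared directly, on levels that were in view when the genes were chosen. In P-DXd-titled against T-DXd-titled libraries, 0 of the 10 genes were called by edgeR or by DESeq2. Of 14653 genes, edgeR called 0.0273%, and DESeq2 called 24 genes. An unadjusted p under 0.05 by edgeR was reached by 1 of the 10 (MMP9) and by 540 of the 14653 genes. MMP9 was also the only 1 of the 10 whose treated groups did not overlap, where the groups of 8.07% of all genes did not. Its level was 47.6 ± 14.6 CPM (SD, n = 3) in P-DXd-titled and 24.7 ± 2.19 CPM (SD, n = 3) in T-DXd-titled libraries, a log2 difference of 0.95 (95% interval 0.55 to 1.34, adjusted p = 0.397 by edgeR). DESeq2 gave an adjusted p of 0.100. Without P-DXd-titled replicate 2, the library with the highest sum of muscle genes, the difference was smaller, at 0.67, and passed the threshold (adjusted p = 0.0481 by edgeR). The difference lay between 0.88 and 1.09 with any other 1 library left out.

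For the other 9 genes, the 95% intervals of the direct comparison held 0. The widest was that of MMP2, at −0.27 (−0.66 to 0.12), and the narrowest was that of MMP10, at −0.14 (−0.32 to 0.05). MMP7 differed by −0.04 (−0.31 to 0.23), TIMP1 by 0.06 (−0.16 to 0.28) and TIMP2 by −0.11 (−0.31 to 0.08). Differences inside these intervals were not detectable with 3 libraries a group, and these values do not show that the conjugates act alike.

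**Figure D3:**
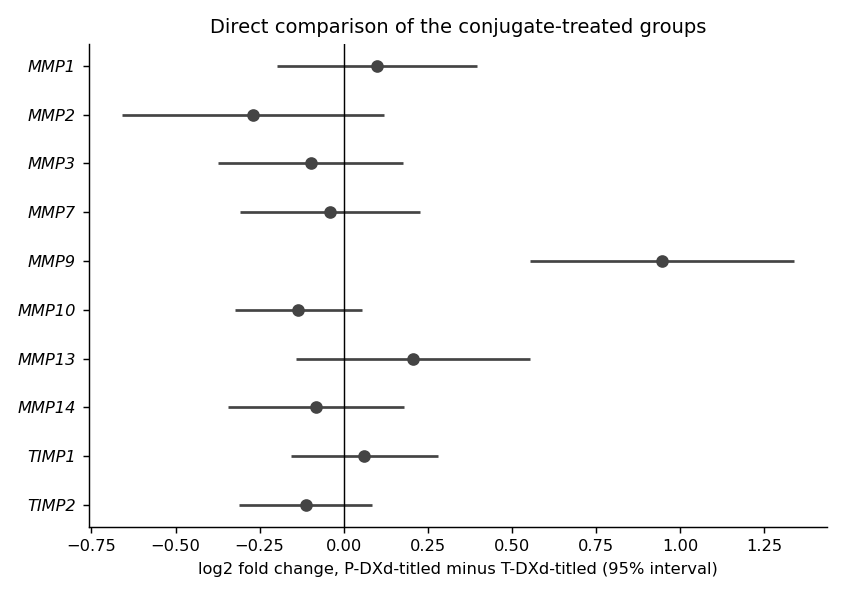
Log2 fold change of P-DXd-titled minus T-DXd-titled libraries with its 95% interval for each of the 10 genes, 3 libraries a group. The interval of MMP9 (0.55 to 1.34) lies above 0 and the other 9 include it.

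Of the 10 genes, 5 lie in 1 stretch of 435 kb on chromosome 11 in the order MMP7, MMP10, MMP1, MMP3 and MMP13. The 6 listed genes inside it are all metalloproteinases, and the other, MMP20, was in 1 table only. Neighbours differed in direction. MMP10 and MMP1 start 19.4 kb apart, with a gap of 9.3 kb between them, and against PBS MMP10 was at 1.3 and 1.43 and MMP1 at −2.45 and −2.57 on the log2 scale. Without PBS replicate 1 the signs of this pair were unchanged, while MMP3, the next gene, changed from −0.12 and −0.03 to 0.90 and 0.99. MMP7, at the end of the stretch and 250 kb from MMP10, had the highest log2 fold changes of the 5.

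**Figure D4:**
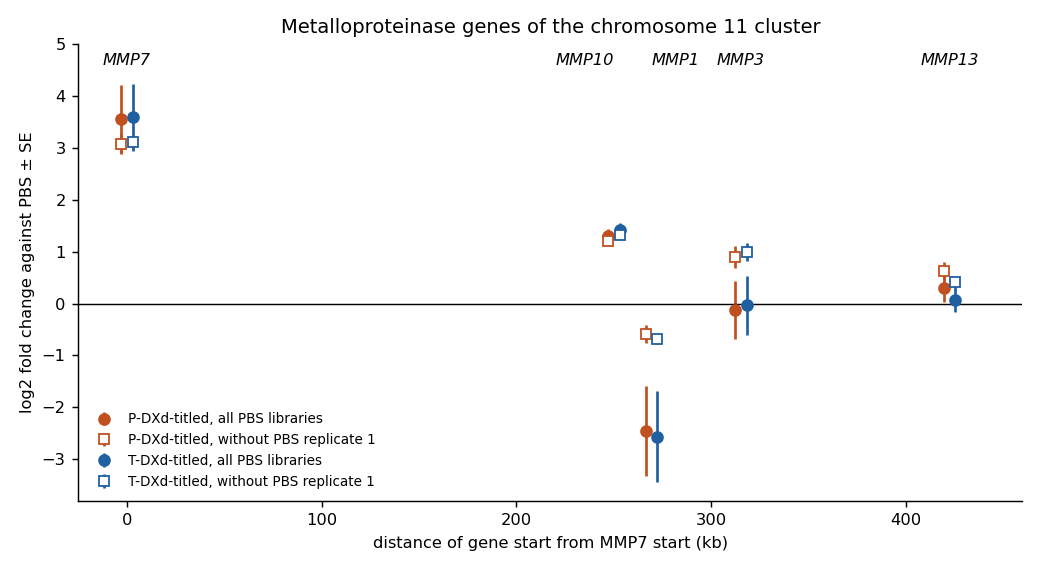
Log2 fold change against PBS ± SE of the 5 genes of the chromosome 11 stretch, by distance in kb of each gene start from the MMP7 start, with all PBS libraries (filled circles) and without PBS replicate 1 (open squares). MMP7 (3.56 and 3.59) and MMP10 (1.3 and 1.43) lie above 0 and MMP1 (−2.45 and −2.57) lies below it.

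Levels of different genes were compared only as CPM per kb of exon, using the exon union in GENCODE release 44. MMP10 was highest of the 10 in every treated group, at 362 ± 24.1 CPM per kb in P-DXd-titled and 398 ± 34.6 CPM per kb in T-DXd-titled libraries (SD, n = 3). TIMP1 followed at 232 ± 31.2 and 223 ± 12.3 CPM per kb, then MMP14 at 123 ± 22.5 and 131 ± 2.45 and TIMP2 at 84.2 ± 9.85 and 91.1 ± 3.35. The lowest in both was MMP3, at 8.47 ± 1.17 and 9.07 ± 1.05. In between, MMP13, MMP7, MMP1, MMP2 and MMP9 ranged from 10.6 to 32.3 CPM per kb, and MMP7 and MMP9 of the P-DXd-titled group (21.6 ± 4.14 and 20.4 ± 6.26) did not differ beyond their spread.

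In PBS the top of the order was less clear. MMP10 was at 146 ± 19.5, MMP14 at 128 ± 35.1, TIMP1 at 116 ± 18.1 and MMP1 at 104 ± 130 CPM per kb, and the ranges of these 4 genes overlapped. The place of MMP1 rested on PBS replicate 1. In the other PBS libraries it was at 28.6 ± 4.83 CPM per kb (SD, n = 2), below TIMP2 at 52.3, and MMP9, at 81.6 ± 26.7, came next after MMP10, TIMP1 and MMP14. With the length of the longest transcript in place of the exon union, MMP14 came first in PBS, ahead of TIMP1 and MMP10, while MMP10 stayed first in treated libraries. MMP7 was lowest of the 10 in PBS at 1.82 ± 1.32 CPM per kb and sixth in both treated groups.

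The make-up of the protease transcripts differed accordingly. MMP10 made up 19.9%, 39.6% and 37.9% of the summed CPM per kb of the 8 proteases in PBS replicates 1 to 3 and 57.8% to 64.8% in treated libraries. MMP1 made up 40.6% in PBS replicate 1, 8.31% and 5.88% in the other PBS libraries and 2.54% to 3.84% in treated ones. MMP9 made up 16.3% and 23.5% in PBS replicates 2 and 3, 2.46% in PBS replicate 1 and 1.57% to 4.79% in treated libraries. Summed protease over summed inhibitor, both in CPM per kb, was 5.30, 2.37 and 2.27 in PBS, 1.82, 2.1 and 1.82 in P-DXd-titled and 2.07, 1.92 and 2.06 in T-DXd-titled libraries. All 6 treated libraries were thus below all PBS libraries, and PBS replicate 1 was far above both. These are transcript ratios and give no protein or enzyme activity.

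**Figure D5:**
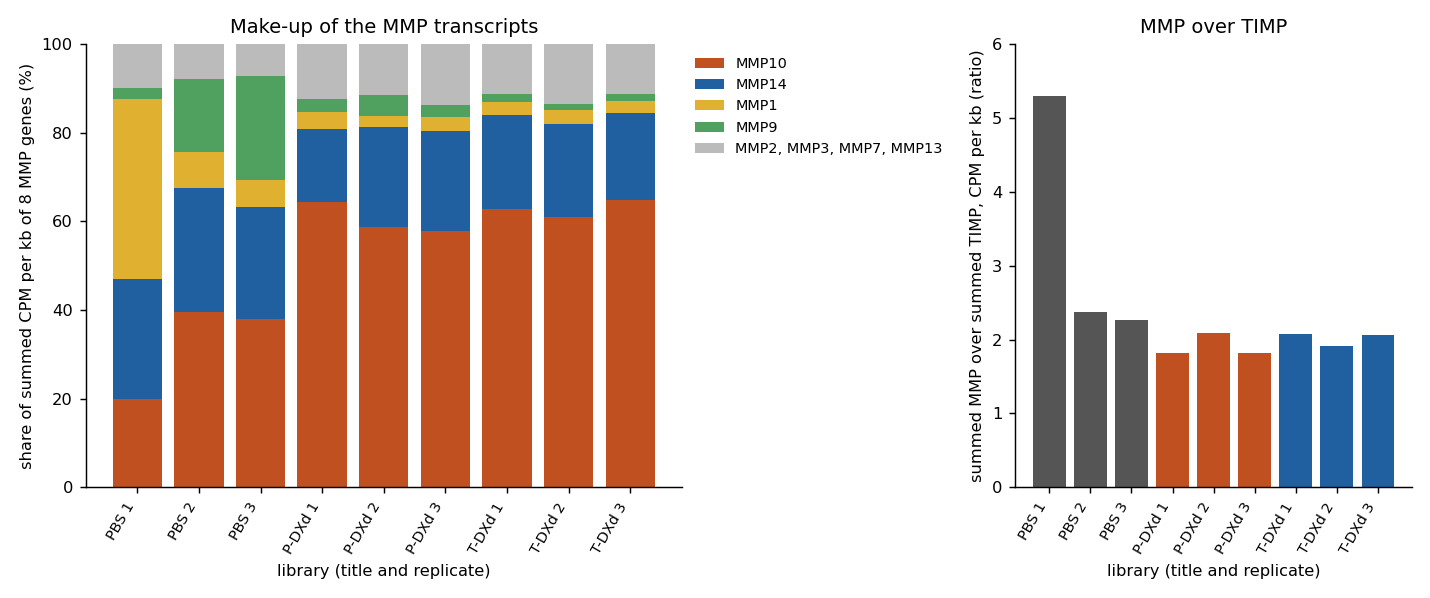
Left, share in percent of the summed CPM per kb of 8 MMP genes taken by MMP10, MMP14, MMP1, MMP9 and the other 4 in each library; right, summed MMP over summed TIMP CPM per kb. MMP10 takes 57.8% to 64.8% in treated libraries, MMP1 takes 40.6% in PBS replicate 1, and the ratio is 5.30 there and 1.82 to 2.37 in all other libraries.

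The genes with the most similar pattern were ranked by Pearson r of log2 CPM over the 9 libraries, among 12657 genes with a mean of at least 1 CPM. The points share libraries and depth, and 1 library or the difference between treated and PBS can set r. For MMP1 they were CAPZA1 (r = 0.99), DUSP4 (0.99) and RP11-553A10.1 (0.99). DUSP4 was at 513 CPM in PBS replicate 1 and at a mean of 185 CPM in the other PBS and 163 CPM in the treated libraries. Without PBS replicate 1, SUN1, ANKRD33B and SOX7 came first for MMP1 (r = 0.98 each), so no gene stayed among the first 3. For MMP7 the first were SELENBP1, CRB3 and MAN1A1 (r = 1.00 each after rounding), and for TIMP1 FXYD5, SDC4 and PAFAH2 (1.00 each). For MMP2 they were RTCB, LMO2 and SPI1 (0.99 each), and SPI1, a transcription factor of myeloid cells, was at 16.9 CPM in PBS replicate 1, at a mean of 8.80 CPM in the other PBS and 38.5 CPM in the treated libraries. Over the 8 libraries other than PBS replicate 1, the first for MMP2 were RHOA, FYN and SLIT3, so none of the 3 stayed, while MAN1A1 stayed for MMP7 and FXYD5 for TIMP1. Within the set, MMP7 and MMP10 had r = 0.96 over 9 libraries and 0.98 without PBS replicate 1, whereas MMP3 and MMP7 had −0.13 and 0.87.

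Other genes of the protease system were taken as 7 lists, of which 93 genes were tested against PBS, and 34 were called in P-DXd-titled, 38 in T-DXd-titled and 47 in both together. Over all genes 25%, 28.6% and 32.2% were called in these comparisons, the lists were chosen with earlier results known, and no list was tested against the other genes. The list genes named below were picked as called genes with a large change, so their adjusted p-values are a description and no independent test. Of 8 other metalloproteinases tested, 4 rose and 1 fell in P-DXd-titled, 5 rose and 1 fell in T-DXd-titled, and 6 rose and 1 fell in both together. MMP15, a membrane-type protease, rose from 11.0 ± 3.79 to 36.8 ± 6.13 and 37.6 ± 1.25 CPM (log2 fold change 1.74 ± 0.27 and 1.76 ± 0.25, adjusted p = 0.00516 and 0.00267 by edgeR). MMP24, also membrane-type, rose by 1.93 ± 0.42 and 2.34 ± 0.41 (adjusted p = 0.0140 and 0.00544 by edgeR). MMP16, another of that type, fell, with a log2 fold change of −1.78 ± 0.37 and −1.92 ± 0.38 (adjusted p = 0.0125 and 0.00856 by edgeR). Without PBS replicate 1, the counts were 7 higher and 1 lower for P-DXd-titled and 6 higher and 1 lower for T-DXd-titled. The median log2 fold change of the list was 0.99 and 0.91.

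Of 8 other inhibitors tested, 2 rose and 1 fell in P-DXd-titled, and 2 rose and 2 fell in T-DXd-titled and in both together. TIMP3, the inhibitor that stays bound to matrix, rose by 1.73 ± 0.38 and 2.06 ± 0.30 (adjusted p = 0.0144 and 0.00290 by edgeR), from 1.60 ± 0.62 CPM in PBS. SPOCK1, a secreted proteoglycan, fell from 22.5 ± 8.31 CPM to 3.99 ± 0.27 and 3.60 ± 0.83 CPM (adjusted p = 0.00185 and 0.00142 by edgeR). TFPI2, a serine protease inhibitor, fell in T-DXd-titled libraries with a log2 fold change of −1.96 ± 0.49, which was −1.13 without PBS replicate 1. The list median was −0.14 and −0.08.

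Among activators and inducers (14 tested), 2 rose and 3 fell in P-DXd-titled and 0 rose and 3 fell in T-DXd-titled libraries. PLAU, the urokinase activator, fell from 7149 ± 1238 to 4163 ± 303 and 3777 ± 138 CPM (adjusted p = 0.00945 and 0.00311 by edgeR). PLAT, the tissue-type activator, fell with a log2 fold change of −0.84 ± 0.17 and −0.71 ± 0.08. The list median was −0.03 and 0.09.

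Among AP-1 and ETS factors (22 tested), 4 rose and 4 fell in P-DXd-titled, 5 rose and 4 fell in T-DXd-titled and 5 rose and 5 fell in both together. FOSL1, an AP-1 subunit, fell from 167 ± 52.0 to 57.3 ± 9.69 and 56.6 ± 3.07 CPM (adjusted p = 0.00482 and 0.00223 by edgeR), while JUND, its partner in some dimers, rose from 52.2 ± 10.3 to 122 ± 6.63 and 132 ± 3.83 CPM (adjusted p = 0.00278 and 0.00114 by edgeR). ELF3, an epithelial ETS factor, rose by 1.64 ± 0.51 in both comparisons, and by 1.21 in both without PBS replicate 1. The list median was 0.09 and 0.05.

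Matrix substrates (16 tested) had 1 higher and 4 lower in P-DXd-titled and 3 higher and 4 lower in T-DXd-titled libraries. COL7A1, the anchoring fibril collagen, fell from 409 ± 136 to 36.0 ± 5.39 and 38.7 ± 3.55 CPM (adjusted p = 0.00146 and 0.000508 by edgeR), and FN1, fibronectin, from 2322 ± 538 to 604 ± 21.5 and 486 ± 44.4 CPM. SPARC, a collagen-binding protein, rose from 208 ± 19.6 to 451 ± 70.4 CPM in P-DXd-titled libraries (adjusted p = 0.00314 by edgeR). Without PBS replicate 1, 5 substrates were higher and 4 lower in each. Among ADAM proteases (8 tested), 0 rose and 2 fell in each comparison, ADAM19 with −1.81 ± 0.20 and −1.95 ± 0.20 and ADAM12 with −1.61 ± 0.22 and −1.54 ± 0.21. Among ADAMTS proteases (17 tested), 2 rose and 4 fell in P-DXd-titled and 2 rose and 5 fell in T-DXd-titled libraries, and ADAMTS6 fell from 38.3 ± 14.3 to 8.13 ± 1.64 and 6.55 ± 0.65 CPM. Without PBS replicate 1, the ADAMTS genes called lower numbered 7 for P-DXd-titled and 6 for T-DXd-titled. In the direct comparison, 0 of 92 list genes were called by edgeR or by DESeq2. An unadjusted p under 0.05 by edgeR was reached by 8 of them and by 540 of all 14653 genes.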

How the data were processed

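The deposited tables hold raw counts per gene, made by the authors. Per the submitters' processing notes, reads were trimmed with Cutadapt, aligned with STAR and counted with featureCounts. Removal of mouse reads and use of strand are not stated in the sources used here. The methods name GRCh38, but the tables' coordinates do not match it, so they are printed as listed. The 2 tables hold 16098 and 16114 genes and share 16008, with identical PBS counts for the shared genes. Each treated group was compared with PBS on its own full table. Levels, the comparison of both conjugates together and the direct one used the shared genes, and 0 columns were left unused.

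Fits used edgeR 4.0.16 in R 4.3.3 (TMM, filterByExpr, two-sided quasi-likelihood test, Benjamini-Hochberg adjustment) on the libraries compared, and were tested on simulated data. DESeq2 1.42.0, the authors' tool, was an alternative. Groups come from sample titles, and replicates are numbered in accession order. The 10 genes and all lists were chosen with earlier results of these data known. Named genes are the 10, up to 4 called list genes with the largest change per comparison, and 3 most similar genes for MMP1, MMP2, MMP7 and TIMP1. The log2 CPM used a prior count of 2. Alternatives included other size factors and count filters, glmTreat, a joint fit and leaving out each library. Some list and marker genes are not reported here.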

Additional observations from a re-analysis of the deposited data

How the results depend on the processing

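For P-DXd-titled against PBS, 4 of the 10 genes were called, 7 with all 9 libraries in 1 fit, and 3 to 8 with 1 library left out (8 without PBS replicate 1). Over all genes the count of 3742 became 1130 with glmTreat against a fold change of 1.5 and 1857 to 3936 with 1 library left out. For T-DXd-titled against PBS it went from 4263 to 1696 with glmTreat and 2820 to 4641 with 1 library left out, and for both together from 4855 to 2536 with glmTreat and 8398 with no fold change minimum. For P-DXd-titled against T-DXd-titled, 4 genes became 24 with DESeq2, 1 with glmTreat, 0 with all 9 libraries in 1 fit and 0 to 8 with 1 library left out, and 0 to 1 of the 10 were called with 1 library left out (MMP9 without P-DXd-titled replicate 2). MMP3 turned from below to above PBS without PBS replicate 1 and, closer to 0, with the animal code block (0.06, 0.47 and 0.08) and for T-DXd-titled without T-DXd-titled replicate 2 (0.05). With 1 library left out its log2 fold change ranged from −0.53 to 0.90 for P-DXd-titled, −0.43 to 0.99 for T-DXd-titled and −0.48 to 0.95 for both together. MMP1 lost its call for both together with DESeq2 (−2.51), and TIMP2 lost its call for T-DXd-titled with a block on the first digit of the animal code (1.06); the causes were not tested. That digit is no stated replicate number. No paired analysis was possible because the labels give no replicate numbers. All 3 comparisons with PBS rest on the same 3 libraries, 1 of which stands apart, and depth was not tested as a separate setting.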
